A study of Homo sapiens with 6 samples.

Results

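The genes described here encode proteins of the core spliceosome: the Sm and LSm rings, the proteins particular to the U1, U2, U5 and U4/U6 small nuclear ribonucleoproteins (snRNPs), the branch point and 3′ splice site factors, the Prp19 complex and the U11/U12 snRNP of the minor spliceosome. They were chosen by symbol, without hnRNP or SR genes, as 45 of the 35716 genes in the count table. All 45 had 1 row each, and all 45 passed the filter on low counts that left 15202 genes. RNA came from MIA PaCa-2, an established human line of pancreatic ductal carcinoma, labelled wild type in every library, in poly(A)-selected mRNA sequencing. The untreated group was kept for 24 h in DMEM with 10% FBS, and the other received triptolide (TPL) at 10 nM for 24 h, with 3 libraries each (the submitters' design note uses the word control for the treated group). Triptolide is a plant diterpenoid that binds XPB, a helicase of the transcription factor TFIIH. The series title sets the comparison in a study of autophagy and the extracellular matrix. The labels do not say that libraries of a group were separate cultures, so the p-values here speak only to library-to-library spread, possibly a technical one.

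Introns are cut from pre-mRNA by the spliceosome, which is built anew on each intron from snRNPs, each of them a small nuclear RNA with its proteins. U1 pairs with the 5′ splice site while SF1 and U2AF mark the branch point and the 3′ splice site, and U2 then replaces SF1 at the branch point. The tri-snRNP of U4/U6 and U5 joins next, and its helicase and the Prp19 complex bring about the active form. A ring of Sm proteins holds the U1, U2, U4 and U5 snRNAs, while U6 carries the LSm ring instead.

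Total counts ran from 16302961 to 23262713 per library, and no pair of libraries differed by as little as sampling noise. Chi-square per degree of freedom, near 1 for sampling noise alone, was 5.46 between untreated replicates 1 and 2. Untreated replicate 3 stood at 45.9 and 33.7 from these, and triptolide libraries at 29.1 to 70.3 from each other. Between groups the values ran from 31.2 to 88.2, so some libraries of a group differed as much as libraries of different groups. Levels are in CPM, a count scaled to a common library size (here by TMM), so each is relative to the other genes of its library, and fold changes are triptolide over untreated. Values after ± are SDs over 3 libraries unless marked SE. The carcinoma keratin genes KRT8 and KRT18 were abundant in both groups, whereas EPCAM and CDH1 were near 0, with group means of 0.0741 and 0.0489 CPM for EPCAM and of 0.0928 and 0.244 CPM for CDH1. The 8 epithelial markers summed to 2642 to 3760.2 CPM untreated and 2103 to 2849 CPM with triptolide (1 rose and 1 fell of 6 tested). KRT18 was the one that fell, from a mean of 870 CPM untreated to 503 CPM with triptolide (edgeR adjusted p = 0.0123). CLDN4 rose from 67.1 to 149 CPM (edgeR adjusted p = 0.00607). The 12 placental trophoblast markers summed to 19.7 to 21 CPM untreated and 559 to 931 CPM with triptolide, and 11 of 12 rose. The 6 erythroid markers found summed to 0.716 to 2.02 CPM untreated and 7.88 to 18.7 CPM with triptolide (3 of 3 tested rose). The 10 fibroblast markers summed to 423 to 505 CPM untreated and 310.4 to 423 CPM with triptolide (4 fell and 0 rose of 8 tested). Most of this sum was COL1A2, with means of 323 and 329 CPM (edgeR adjusted p = 0.936). The 4 that fell were COL1A1 (means of 61.1 and 2.83 CPM), SPARC (18.3 and 3.05), POSTN (8.17 and 0.0412) and THY1 (2.74 and 0.999). The 7 endothelial and leukocyte markers found summed to 21 to 26.2 CPM untreated and 16.8 to 21.9 CPM with triptolide, with 2 risen and 1 fallen of 3 tested. HSD3B1, HBG1, HBG2, CD68 and CD163 were at 0 in every untreated library and FAP in every triptolide library. The part of such RNA in the results was not tested. In bulk RNA, fewer cells of a type and less RNA per cell cannot be told apart.

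With triptolide, 4 core spliceosome genes fell and 0 rose of the 45 tested, where edgeR called 5.82% of all tested genes lower and 10% higher at an adjusted p under 0.05. The 4 were SNRPA, the U1A protein of the U1 snRNP, SF3B3, a subunit of the SF3b complex of U2, SNRNP48, a protein of the U11 snRNP, and LSM2 of the U6 LSm ring. Together they make up 8.89% of the members. At an unadjusted p under 0.05, 9 members were lower and 0 higher, against 13.8% and 17.1% of all tested genes. DESeq2 called 7 members lower and limma-voom 5, against 7.39% and 5.91% of all tested genes, and both called 0 higher, against 9.9% and 9.76%. The log2 fold change was below 0 for 34 of 45 members (75.6%) and for 50.3% of all tested genes. This count was 21 of 45 with scaling on ribosomal protein genes, against 34.3% of all genes, and 28 of 45 without untreated replicate 3, against 48.9%. It was 29 of 45 both with library totals, against 44.6%, and with a mean of at least 5 CPM, against 49.6%. Under that minimum the medians were -0.077 for members and 0.004 for all genes. Members had a median of 15150 counts over the 6 libraries, against 1843.5 for all tested genes, so the shares over all genes come from mostly lower counts. The members' median was -0.16 and that of all tested genes -0.004, and with scaling on ribosomal protein genes the members' median turned to 0.031 beside 0.17 for all genes. Fold changes of members ran from -1.42 to 0.40 on the log2 scale. For 37 of the 41 members not called, the 95% interval lay within a 2-fold change in either direction. The groups did not overlap in 7 members on the lower side (15.6%, against 16.9% of all tested genes) and in 1 on the higher side (2.22%, against 19.8%).

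**Figure D1:**
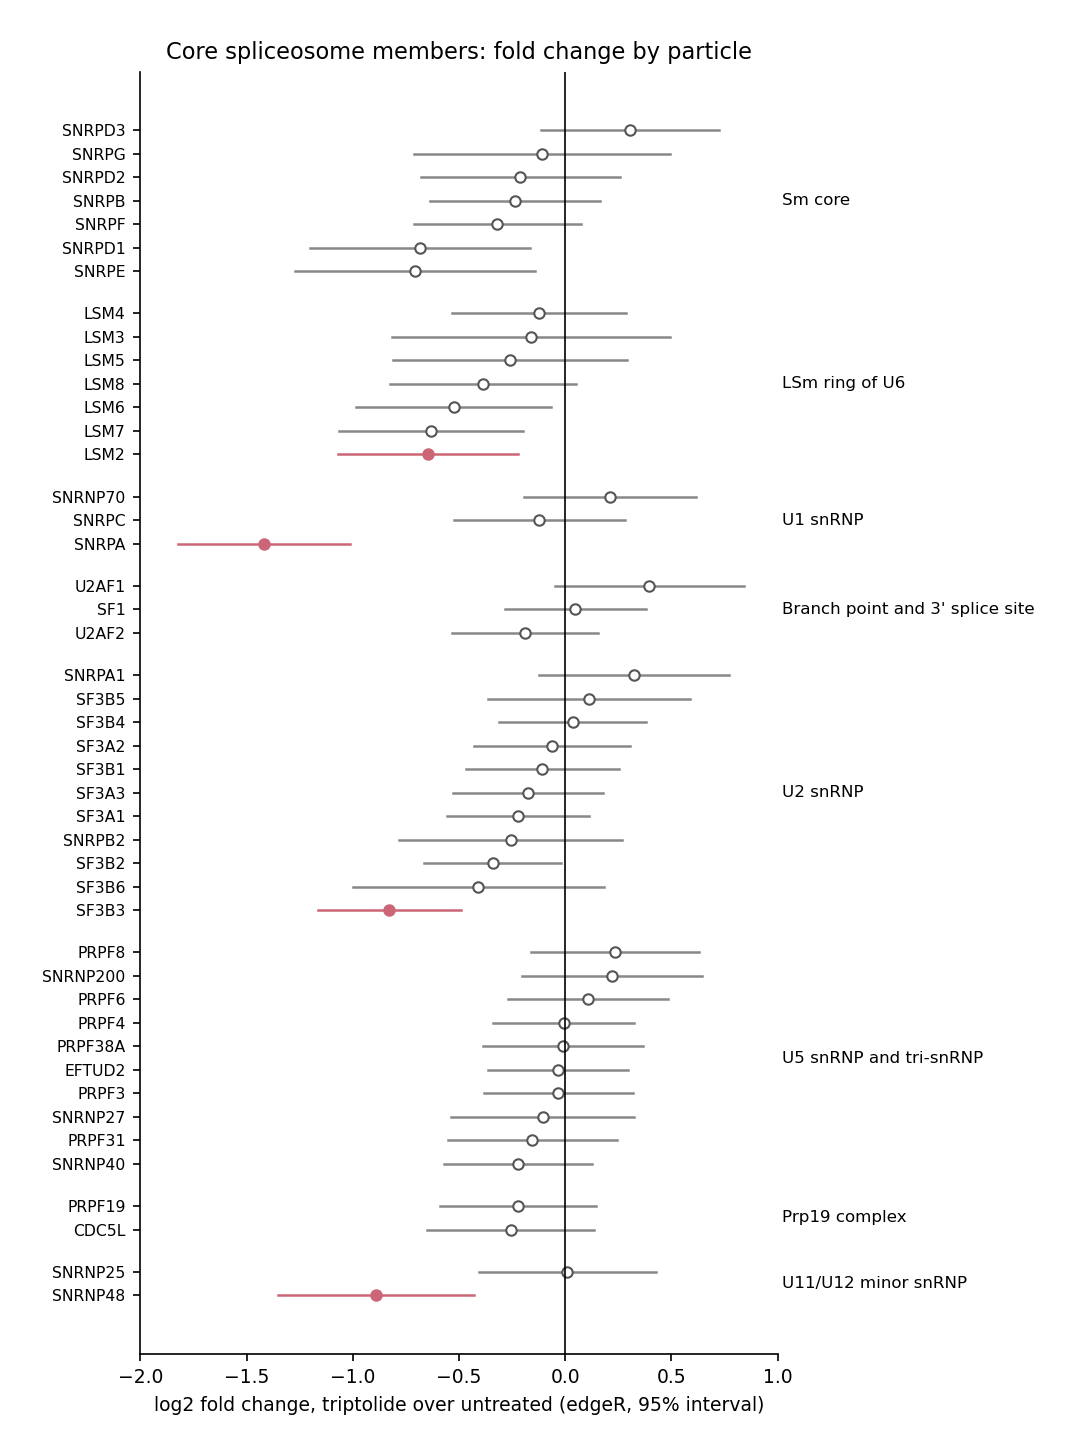
Log2 fold change (triptolide over untreated) of the 45 members on the horizontal axis, grouped by particle, with 95% intervals from edgeR as bars. Filled red points mark the 4 members with an adjusted p under 0.05, all left of 0, and open points the 41 others, whose fold changes lie between -0.71 and 0.40.

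**Figure D2:**
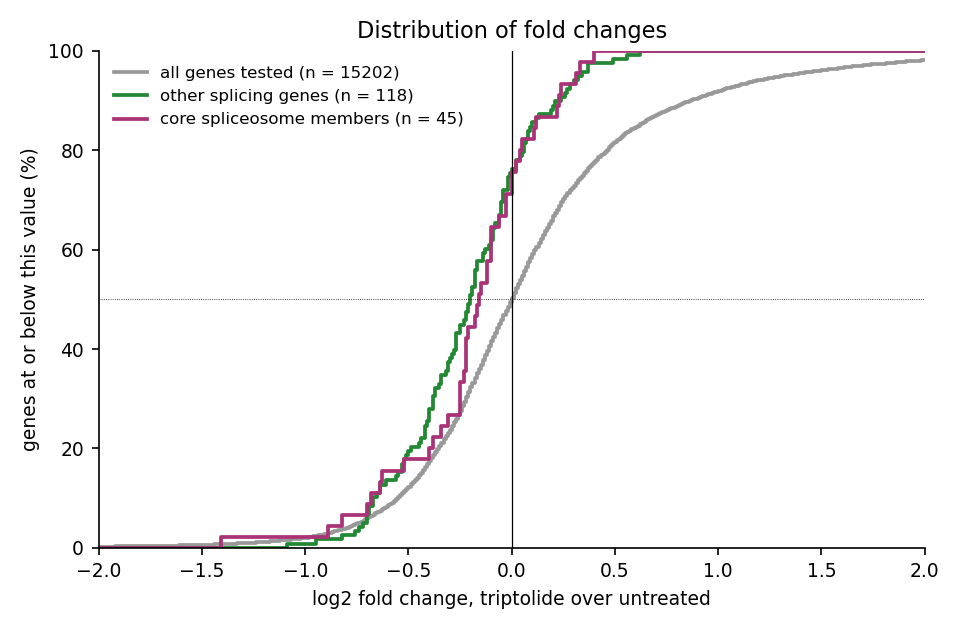
Percent of genes (vertical axis) at or below each log2 fold change (horizontal axis) for the 45 members, 118 other splicing genes and all 15202 tested genes. At 0 the curves of both splicing lists stand at 75.6% and 76.3%, while that of all tested genes stands at 50.3%, and no member lies above 0.40.

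The promoters of 3 of the 4 fallen genes are shown because these are the members past the test; the table holds no entry for SF3B3. Each line gives the 250 bases before the start, 5′ to 3′ on the gene's strand, from RefSeq (GRCh38.p14). Capitals mark matches on either strand. The CCAAT box was searched as CCAAT and the GC-rich Sp box as GGGCGG. The E-box was searched as CACGTG and the short ETS core as GGAAG. In SNRNP48 a Sp box and a short ETS core share letters. The SNRPA window is chr19:40750953-40751202, plus strand, that of SNRNP48 is chr6:7589948-7590197, plus strand, and that of LSM2 is chr6:31806967-31807216, minus strand.
SNRPA: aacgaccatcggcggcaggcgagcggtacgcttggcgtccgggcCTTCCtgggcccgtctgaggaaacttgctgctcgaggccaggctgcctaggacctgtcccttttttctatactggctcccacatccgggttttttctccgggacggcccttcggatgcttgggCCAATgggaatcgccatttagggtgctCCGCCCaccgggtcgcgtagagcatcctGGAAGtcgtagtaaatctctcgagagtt
SNRNP48: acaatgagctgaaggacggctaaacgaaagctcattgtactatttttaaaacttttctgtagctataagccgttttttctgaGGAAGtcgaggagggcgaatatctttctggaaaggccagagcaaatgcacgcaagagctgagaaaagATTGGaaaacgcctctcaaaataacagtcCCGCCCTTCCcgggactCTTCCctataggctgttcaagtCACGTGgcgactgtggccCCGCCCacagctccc
LSM2: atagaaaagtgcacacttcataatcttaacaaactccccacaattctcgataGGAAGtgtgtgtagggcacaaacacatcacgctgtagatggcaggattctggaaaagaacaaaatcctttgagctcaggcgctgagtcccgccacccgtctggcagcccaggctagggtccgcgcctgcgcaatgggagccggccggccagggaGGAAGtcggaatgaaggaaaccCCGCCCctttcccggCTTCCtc
TATAAA was not among the letters of these 3 windows. Over the 41 members that the RefSeq table holds, it was in 1 (2.44%), against 11.1% of the 27305 promoters in the table. GGGCGG was in 25 of 41 members (61%) and 42.3% of all promoters, and CCAAT in 18 (43.9%) and 33%. The longer ETS core CCGGAAG was in 18 of 41 members (43.9%) and 8.82% of all promoters, and in none of the 3 printed windows. GGAAG was in 33 of 41 and 65.1% of all promoters, and CACGTG in 3 of 41 and 6.49%. The 27305 promoters were not limited to the 15202 tested genes, and the members were not compared with promoters of tested genes alone. Whether these shares are particular to the members was therefore not tested. These counts describe letters in a window, not binding.

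SNRPA (ENSG00000077312) encodes U1A, which binds a stem-loop of the U1 snRNA. It stood at 129.8, 148 and 187 CPM in untreated replicates 1 to 3 and 61, 63.7 and 48.9 CPM in triptolide replicates 1 to 3. The highest triptolide library lay below the lowest untreated one, and the group means were 155 ± 29.1 and 57.9 ± 7.88 CPM (SD, n = 3 libraries each). SNRPA fell 2.68-fold (log2 fold change -1.42 ± 0.19 (SE), edgeR adjusted p = 4.78e-04), and its 95% interval ran from -1.82 to -1.01. It passed in all 15 alternative settings, with adjusted p-values up to 0.00376. Its partners in U1 did not pass. SNRNP70, the U1-70K protein, stood at 409, 398 and 535 CPM in untreated replicates 1 to 3 and 620.3, 494 and 441 CPM in triptolide replicates 1 to 3. Untreated replicate 3 lay above triptolide replicates 2 and 3, so the groups overlapped (log2 fold change 0.21 ± 0.19 (SE), edgeR adjusted p = 0.475, 95% interval -0.19 to 0.62). SNRPC, the U1C protein that supports pairing at the 5′ splice site, had means of 236 ± 38.5 and 217 ± 40.2 CPM (adjusted p = 0.697). The 3 genes of U1 proteins summed to 839 ± 139 CPM untreated and 793 ± 106 CPM with triptolide.

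SNRPB2, which encodes U2B″ of U2, is a paralog of SNRPA with the same kind of RNA-binding domain, and its protein pairs with that of SNRPA1, U2A′. SNRPB2 stood at 48.6, 46.2 and 62.1 CPM in untreated replicates 1 to 3 and 28.5, 59.3 and 43.2 CPM in triptolide replicates 1 to 3, with overlap between groups (log2 fold change -0.26 ± 0.24 (SE), edgeR adjusted p = 0.509). SNRPA1 had means of 61.9 ± 12.6 and 77.6 ± 18 CPM (log2 fold change 0.33, adjusted p = 0.31). The log2 ratio of SNRPA to SNRPB2 counts, which no scaling between libraries can move, was 1.42, 1.68 and 1.59 in untreated replicates 1 to 3 and 1.10, 0.10 and 0.18 in triptolide replicates 1 to 3. All 3 triptolide ratios lay below the untreated ones, and the triptolide libraries themselves spread by about 1 on this scale. This ratio is a description and no separate support, since SNRPA was taken for its fall.

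In the U2 snRNP, 1 of 11 members fell and 0 rose. SF3B3 (ENSG00000189091) encodes SF3b130, a scaffold of propeller domains in the SF3b complex that grips the branch point. It stood at 651, 657 and 556 CPM in untreated replicates 1 to 3 and 360.0, 333 and 357 CPM in triptolide replicates 1 to 3. The triptolide libraries lay close together and well below the untreated ones, and SF3B3 fell 1.78-fold (log2 fold change -0.83 ± 0.15 (SE), edgeR adjusted p = 0.00404), with a 95% interval from -1.16 to -0.49. Only with scaling on ribosomal protein genes did it miss the threshold among the 15 alternatives (adjusted p = 0.12).

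The other 5 SF3b subunits among the members did not pass. PHF5A, an SF3b subunit counted with the other splicing genes below, did not pass either (log2 fold change -0.34, edgeR adjusted p = 0.201). It had means of 64.4 ± 11.8 CPM untreated and 50.8 ± 2.24 CPM with triptolide, without overlap between groups. SF3B1, the HEAT-repeat scaffold that holds the branch point helix, stood at 415, 444 and 353 CPM in untreated replicates 1 to 3 and 325, 397 and 402 CPM in triptolide replicates 1 to 3. Untreated replicate 3 lay below triptolide replicates 2 and 3, and the 95% interval of the log2 fold change ran from -0.47 to 0.25 (adjusted p = 0.7). SF3B2 had means of 258 ± 10.5 and 203 ± 12.1 CPM and did not overlap between groups (log2 fold change -0.34, adjusted p = 0.14). SF3B4 stood at 136 ± 12.9 and 139.7 ± 15 CPM and SF3B5 at 258 ± 42 and 279 ± 88 CPM, with adjusted p-values of 0.903 and 0.765. SF3B6, the p14 protein next to the branch point adenosine, stood at 112, 129 and 197 CPM in untreated replicates 1 to 3 and 76.1, 158 and 95.9 CPM in triptolide replicates 1 to 3 (adjusted p = 0.337). Its groups overlapped, with triptolide replicate 2 above untreated replicates 1 and 2, and without that library its adjusted p was 0.049. Of the SF3a subunits, which link SF3b to the rest of U2, SF3A1 had means of 199 ± 14.1 and 171 ± 14.7 CPM, SF3A2 of 107 ± 18.4 and 102 ± 7.26 CPM and SF3A3 of 268 ± 18.6 and 238 ± 34.2 CPM (adjusted p = 0.354, 0.84 and 0.502). The 11 genes of U2 summed to 2511 ± 63 CPM untreated and 2088 ± 90.5 CPM with triptolide.

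Of the branch point and 3′ splice site factors, 0 of 3 passed in edgeR, and 0 did at an unadjusted p under 0.05 or in DESeq2 and limma-voom. SF1, the branch point binding protein, had means of 278 ± 11.6 and 288 ± 26.2 CPM (adjusted p = 0.861). U2AF2, the large U2AF subunit that binds the polypyrimidine tract, had means of 554 ± 39.4 and 486 ± 52.1 CPM (adjusted p = 0.453). U2AF1, the small subunit that reads the AG of the 3′ splice site, stood at 10.9, 10.4 and 9.97 CPM in untreated replicates 1 to 3 and 12.5, 11.2 and 17.5 CPM in triptolide replicates 1 to 3. Here every triptolide library lay above every untreated one, yet the change did not pass (log2 fold change 0.40 ± 0.20 (SE), edgeR adjusted p = 0.21, 95% interval -0.05 to 0.84). The human assembly GRCh38 carries a near-identical copy, U2AF1L5 (ENSG00000275895), so that reads can fit both. U2AF1L5 took 25.1%, 40.1% and 47.1% of the counts of both rows in untreated replicates 1 to 3, and 55.4%, 38.5% and 15.8% in triptolide replicates 1 to 3. Summed over both rows the level was 16.9 ± 2.19 CPM untreated and 22.3 ± 5.08 CPM with triptolide, and the groups overlapped. The level of U2AF1 is therefore uncertain in these counts.

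The Sm ring held 0 called members of 7 in edgeR, with 2 at an unadjusted p under 0.05, both lower. DESeq2 called SNRPD1 and SNRPE lower, and limma-voom called neither. SNRPE, the Sm E protein, stood at 83.3, 88.2 and 151 CPM in untreated replicates 1 to 3 and 49.9, 88.3 and 59 CPM in triptolide replicates 1 to 3 (log2 fold change -0.71 ± 0.26 (SE), edgeR adjusted p = 0.0857). SNRPD1, the Sm D1 protein, stood at 122, 132 and 189 CPM in untreated replicates 1 to 3 and 65.3, 123 and 87.5 CPM in triptolide replicates 1 to 3 (log2 fold change -0.68 ± 0.24 (SE), edgeR adjusted p = 0.0718). In both genes untreated replicate 3 was the highest of all libraries, and triptolide replicate 2 lay above untreated replicate 1. Without untreated replicate 3 their log2 fold changes were -0.39 and -0.47 (adjusted p = 0.292 and 0.217), and without triptolide replicate 2 both passed (adjusted p = 0.0207 and 0.0151).

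SNRPB, which encodes Sm B and B′, stood at 165, 181 and 249 CPM in untreated replicates 1 to 3 and 178, 178 and 150.0 CPM in triptolide replicates 1 to 3, and triptolide replicates 1 and 2 lay between untreated replicates 1 and 2 (adjusted p = 0.417). SNRPD2 had means of 581 ± 169.8 and 502 ± 84.6 CPM, SNRPF of 80.8 ± 16 and 64.8 ± 6.74 CPM and SNRPG of 143 ± 48 and 133 ± 52.1 CPM (adjusted p = 0.544, 0.255 and 0.828). SNRPD3, the Sm D3 protein, was the one Sm gene with a fold change above 0, at 23, 24.8 and 22.5 CPM in untreated replicates 1 to 3 and 21.7, 34.7 and 30.3 CPM in triptolide replicates 1 to 3 (adjusted p = 0.313). Its groups overlapped through triptolide replicate 1, and without that library its log2 fold change was 0.49 with an adjusted p of 0.0426. The 7 Sm genes summed to 1282 ± 351 CPM untreated and 1055 ± 148 CPM with triptolide, and untreated replicate 3 held 1.56 times the mean of the other untreated libraries.

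In the LSm ring of U6, 1 of 7 members fell, 0 rose, and all 7 fold changes were below 0. With scaling on ribosomal protein genes, LSM3 and LSM4 turned to 0.05 and 0.07. LSM2 (ENSG00000204392) stood at 59.2, 62.3 and 88.6 CPM in untreated replicates 1 to 3 and 48.4, 48 and 37.9 CPM in triptolide replicates 1 to 3. The groups did not overlap, with 59.2 CPM as the lowest untreated and 48.4 CPM as the highest triptolide value, and LSM2 fell 1.56-fold (log2 fold change -0.65 ± 0.19 (SE), edgeR adjusted p = 0.0419). This call was the least steady of the 4. Leaving out untreated replicate 2 gave an adjusted p of 0.0735, leaving out untreated replicate 3 gave 0.112, and leaving out triptolide replicate 3 gave 0.165. It was just over 0.05 with library totals in place of TMM scaling, 0.289 with ribosomal protein scaling and 0.0904 under a 5 CPM minimum on the mean.

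LSM7, another subunit of the ring, lay just beyond the threshold at 139, 145 and 199.6 CPM in untreated replicates 1 to 3 and 129, 89.1 and 93.7 CPM in triptolide replicates 1 to 3 (log2 fold change -0.63 ± 0.20 (SE), edgeR adjusted p = 0.0503), with no overlap between groups. It passed in 7 of the 15 alternatives, DESeq2 and limma-voom among them. LSM6 also did not overlap, with means of 17.8 ± 2.14 and 12.3 ± 3.15 CPM (adjusted p = 0.114). LSM8, the subunit that sets the nuclear U6 ring apart from the cytoplasmic decay ring with LSM1, stood at 47.8, 45.7 and 67 CPM in untreated replicates 1 to 3 and 36.1, 49.8 and 36.8 CPM in triptolide replicates 1 to 3. Triptolide replicate 2 lay above untreated replicates 1 and 2 (adjusted p = 0.218). LSM3, LSM4 and LSM5 had means of 44.1 ± 13.2 and 39.4 ± 18.6 CPM, 277 ± 55.4 and 255 ± 43 CPM and 52 ± 13.5 and 43.4 ± 15.4 CPM, with adjusted p-values of 0.76, 0.703 and 0.527. The 7 LSm genes summed to 676 ± 145 CPM untreated and 539.7 ± 54.5 CPM with triptolide, with untreated replicate 3 again at 1.42 times the mean of the other untreated libraries.

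**Figure D3:**
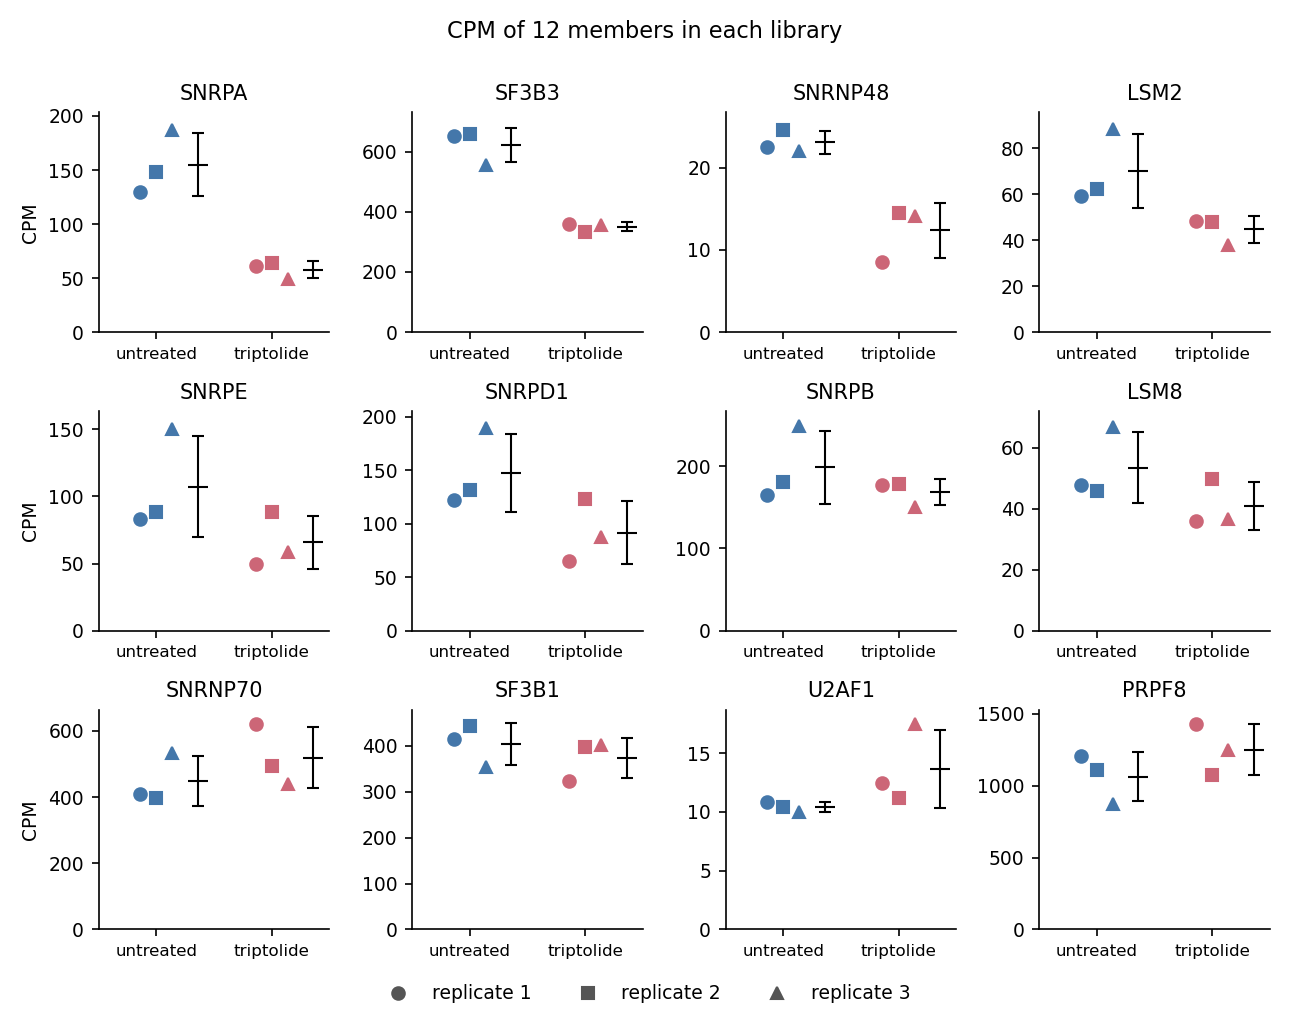
CPM (vertical axes, from 0) of 12 members in each library; circles, squares and triangles are replicates 1, 2 and 3 of each group, and bars give the mean ± SD over 3 libraries. SNRPA, SF3B3, SNRNP48 and LSM2 show no overlap on the lower side and U2AF1 none on the higher side, while untreated replicate 3 stands highest for SNRPE, SNRPD1, SNRPB and LSM8.

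The U5 snRNP and the tri-snRNP held 0 called members of 10 in edgeR, in DESeq2 and in limma-voom, and 0 at an unadjusted p under 0.05, and none of the 10 had groups without overlap. PRPF8, the protein that cradles the catalytic centre, had the highest CPM of the members in both groups, a value not corrected for its long transcript, at 1209.7, 1108 and 872 CPM in untreated replicates 1 to 3 and 1429, 1074 and 1248 CPM in triptolide replicates 1 to 3. Triptolide replicate 2 lay below untreated replicates 1 and 2, and the log2 fold change was 0.23 with a 95% interval from -0.16 to 0.63 (adjusted p = 0.418). SNRNP200, the BRR2 helicase that unwinds U4 from U6, had means of 657 ± 110.2 and 765 ± 155 CPM (adjusted p = 0.48). The GTPase gene EFTUD2 had means of 339 ± 18.7 and 332 ± 26.8 CPM, and SNRNP40, a WD-repeat protein of U5, of 139 ± 18.7 and 119.7 ± 7.01 CPM. PRPF6, which bridges U5 and U4/U6, had means of 174 ± 18.5 and 188 ± 32.5 CPM. Their adjusted p-values were 0.907, 0.382 and 0.716.

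The U4/U6 proteins PRPF3 and PRPF4, which bind each other, had means of 102 ± 2.51 and 99.2 ± 14.2 CPM and of 143 ± 9.1 and 142 ± 12.2 CPM (adjusted p = 0.911 and 0.983). PRPF31, which binds U4, had means of 92.8 ± 15.6 and 83.3 ± 13.9 CPM, SNRNP27 of 19.9 ± 1.19 and 18.5 ± 4.55 CPM and PRPF38A, which joins the complex before activation, of 63.6 ± 2.55 and 63.1 ± 12 CPM (adjusted p = 0.605, 0.759 and 0.978). The intervals of all 10 genes lay within a 2-fold change in either direction. Their median log2 fold change was -0.02, against -0.24 in the Sm ring, -0.39 in the LSm ring and -0.18 in U2, differences between classes that were not tested. The 10 genes summed to 2794 ± 224 CPM untreated and 3061 ± 355 CPM with triptolide.

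Of the Prp19 complex, PRPF19, its ubiquitin ligase, stood at 199, 207 and 232 CPM in untreated replicates 1 to 3 and 218, 160.0 and 168 CPM in triptolide replicates 1 to 3 and CDC5L at 81.5, 79.5 and 77.9 CPM in untreated replicates 1 to 3 and 51.9, 80.8 and 67.2 CPM in triptolide replicates 1 to 3. Both overlapped between groups and neither passed (log2 fold changes -0.22 and -0.26, adjusted p = 0.406 and 0.368). In the minor spliceosome, which removes the rare U12-type introns, SNRNP48 (ENSG00000168566), a U11 protein that recognises their 5′ splice site, stood at 22.5, 24.7 and 22 CPM in untreated replicates 1 to 3 and 8.5, 14.5 and 14.2 CPM in triptolide replicates 1 to 3. All triptolide libraries lay below the untreated ones, and SNRNP48 fell 1.85-fold (log2 fold change -0.89 ± 0.21 (SE), edgeR adjusted p = 0.0145), with a 95% interval from -1.35 to -0.43. Its adjusted p was 0.0555 without untreated replicate 2 and 0.222 with ribosomal protein scaling. SNRNP25, its partner in U11, stood at 45.5, 54.2 and 63.1 CPM in untreated replicates 1 to 3 and 67.3, 49.5 and 47.4 CPM in triptolide replicates 1 to 3 and did not pass (log2 fold change 0.01, 95% interval -0.41 to 0.43).

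Ratios of counts between genes of one particle do not depend on how libraries are scaled, and show only unequal change. They are descriptions here, since the 4 genes were taken for their fall. The log2 ratio of SNRPA to its U1 partners SNRNP70 and SNRPC was -1.14, -1.04 and -1.04 in untreated replicates 1 to 3 and -2.53, -2.50 and -2.55 in triptolide replicates 1 to 3. The spread within each group was small beside the gap, with SDs of 0.06 and 0.03 around means of -1.07 and -2.53. SF3B3 was set against the other 5 SF3b genes among the members, which leaves out PHF5A. This log2 ratio was 1.70, 1.60 and 1.19 in untreated replicates 1 to 3. In triptolide replicates 1 to 3 it was 0.87, 0.65 and 0.96, also without overlap. The ratio of SNRNP48 to SNRNP25 was -1.01, -1.14 and -1.52 in untreated replicates 1 to 3. In triptolide replicates 1 to 3 it was -2.99, -1.77 and -1.74, with triptolide replicate 1 far below the rest. SNRNP25 was the only U11/U12 partner used. Of 9 further U11/U12 genes, counted with the other splicing genes below, SNRNP35 also fell (log2 fold change -0.76, edgeR adjusted p = 0.0307). The other 8 were not called. The ratio of LSM2 to the other 6 LSm genes was 0.03, 0.04 and 0.07 in untreated replicates 1 to 3 and 0.07, -0.37 and -0.35 in triptolide replicates 1 to 3. Triptolide replicate 1 was the highest of all 6. In that library LSM2 was thus not lower than untreated relative to the ring.

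**Figure D4:**
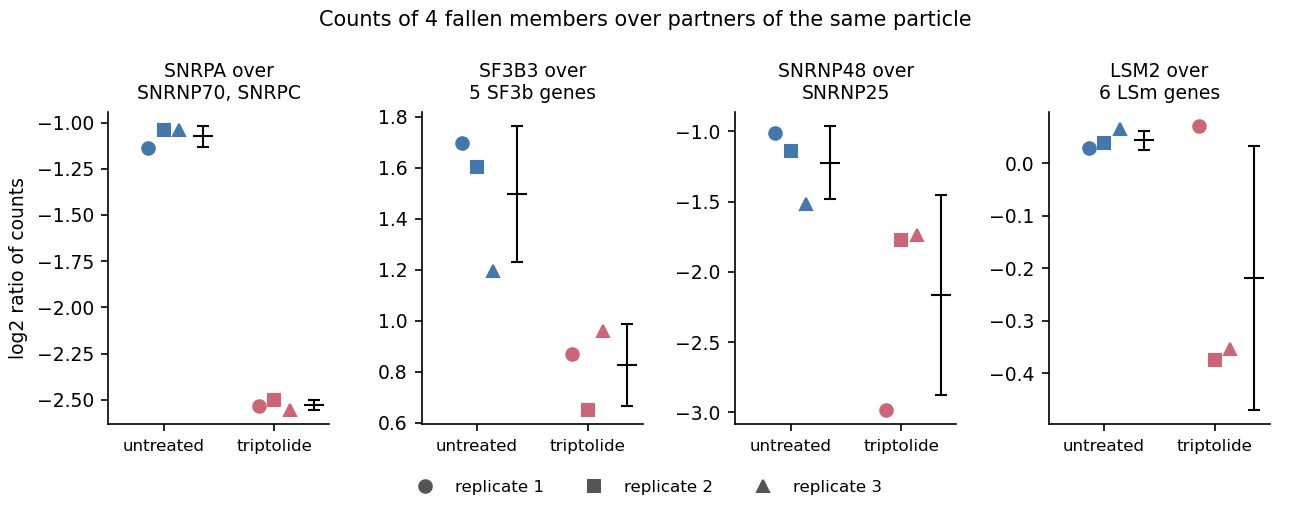
Log2 ratio of counts (vertical axes, which do not start at 0) of SNRPA, SF3B3, SNRNP48 and LSM2 over the geometric mean of named genes of the same particle, by library; circles, squares and triangles are replicates 1, 2 and 3, and bars give the mean ± SD over 3 libraries. The first 3 panels show no overlap between groups, and in the LSM2 panel triptolide replicate 1 lies above all untreated libraries.

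Untreated replicate 3 was the highest of the 3 untreated libraries in 32 of 45 members and the highest of all 6 in 23. The shares over all tested genes are not given here, for these counts or for the relation with length below. This library also differed from untreated replicates 1 and 2 over the whole table, with a chi-square per degree of freedom of 45.9 and 33.7. Between those 2 libraries it was 5.46, so the difference is not particular to these genes. Its CPM over the mean of untreated replicates 1 and 2 had a median of 1.46 in the 9 members with a principal transcript under 1 kb, 1.33 in the 13 of 1 to 2 kb and 1.06 in the 23 over 2 kb (lengths from GENCODE 29). The ratio reached 1.76 for SNRPE, of 942 bases, and was 0.752 for PRPF8, of 7445 bases. Across the 45 genes the log2 ratio had a Pearson correlation of -0.68 and a Spearman correlation of -0.65 with length, where all points share these 3 libraries and genes are not independent replicates. The log2 fold change with triptolide had correlations of 0.01 and 0.04 with length over the same genes. Without untreated replicate 3 the members' median log2 fold change was -0.057 in place of -0.16, and 3 of the 4 members still fell, LSM2 being the exception. RNA quality of the single libraries is not given in the labels, and its part in these values was not tested.

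**Figure D5:**
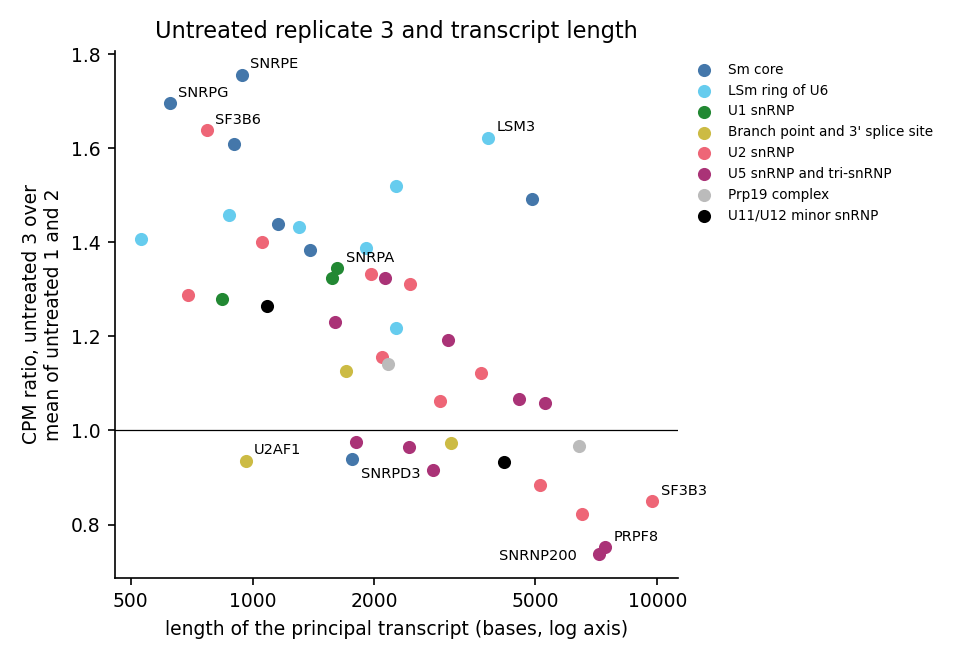
Ratio of CPM in untreated replicate 3 to the mean of untreated replicates 1 and 2 (vertical axis) against principal transcript length in bases (horizontal log axis), 1 point per member, coloured by particle. Members with short transcripts lie mostly above 1 and the longest, such as PRPF8 and SNRNP200, below it.

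Levels can be set beside each other only per length, and CPM per kb of principal transcript is used for this, with the caution that the authors' annotation is not given. In untreated cells the Sm genes ran from 13.3 ± 0.701 (SNRPD3) to 645 ± 188 CPM per kb (SNRPD2), while the ring itself holds 1 copy of each protein. SNRPD1 stood at 30.1 ± 7.41 with a principal transcript of 4909 bases, a length that lowers its value. The ring genes SNRPB, SNRPE, SNRPF and SNRPG stood at 172 ± 38.7, 114 ± 39.8, 58.2 ± 11.5 and 229 ± 76.7 CPM per kb. SF3B3 and SF3B1 had levels within their spread of each other untreated, at 63.9 ± 5.82 and 61.9 ± 7.1 CPM per kb, and stood at 36 ± 1.53 and 57.4 ± 6.65 with triptolide. The near-equal untreated levels depend on principal transcripts of 9720 and 6526 bases, since the untreated means were 621 and 404 CPM. Among the U1 genes SNRNP70 and SNRPC stood at 284 ± 48 and 281 ± 45.8 CPM per kb and SNRPA at 95.5 ± 18. SNRNP48 was the lowest of all 45 at 5.53 ± 0.334 CPM per kb untreated and 2.97 ± 0.807 with triptolide.

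Another 118 genes of snRNP assembly, of the remaining snRNP, Prp19, second-step, minor and LSm proteins, and of the exon junction complex were all tested. Of these 14 fell (11.9%) and 0 rose in edgeR, beside the 5.82% and 10% of all tested genes. At an unadjusted p under 0.05, 34 were lower and 2 higher, against 13.8% and 17.1% of all tested genes. DESeq2 called 20 lower and 1 higher, against 7.39% and 9.9% of all genes, and limma-voom 15 and 0, against 5.91% and 9.76%. The groups did not overlap in 44 on the lower side (37.3%, against 16.9% of all tested genes) and in 5 on the higher side (4.24%, against 19.8%). The median log2 fold change was -0.21 in this list and -0.004 over all tested genes. With scaling on ribosomal protein genes 0 of the 118 were called in either direction. GEMIN2, a subunit of the SMN complex that loads Sm proteins onto snRNA, stood at 14, 18.1 and 21.8 CPM in untreated replicates 1 to 3 and 6.55, 10.5 and 8.11 CPM in triptolide replicates 1 to 3. It fell 2.13-fold (log2 fold change -1.09 ± 0.23 (SE), edgeR adjusted p = 0.00754). CWC22, which brings the exon junction complex to the spliceosome, fell 1.94-fold, with means of 23.8 ± 1.36 and 12.2 ± 3.7 CPM (adjusted p = 0.013). MAGOHB, a core protein of that complex, fell 1.77-fold from 56.4 ± 8.18 CPM (adjusted p = 0.0116). RBMX2 fell 1.68-fold, with means of 35.3 ± 3.61 and 21 ± 1.98 CPM (adjusted p = 0.0107). DHX35, a DEAH-box helicase, and PPIL1, a peptidyl-prolyl isomerase, fell 1.62-fold and 1.65-fold (adjusted p = 0.0117 and 0.012). SNRNP35, a U11/U12 protein like SNRNP48 and SNRNP25, fell 1.69-fold to 7.07 ± 1.31 CPM (adjusted p = 0.0307). The other 7 were LSM14A, PRPF38B, TIA1, LSM12, WBP4, RBM17 and SNW1, with falls of 1.43-fold to 1.63-fold.

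Reads of some members can fit other genes. In GENCODE 29, 32% of the exonic bases of PRPF31, 24.6% of SNRPD3, 20% of SNRPB, 12.7% of SF3A2 and 10.4% of SNRNP27 also lay in exons of another gene on either strand. The share was 10% or less in the other 40 members, at 3.77% for SNRPA. Numbered pseudogenes of 10 members were in the table. Their counts came to 11.3% of those of SNRPA1, 9.18% of SNRPE and 5.43% of SNRPG, and to under 1% in the other 7. Levels of these genes are less certain for that reason.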

How the data were processed

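The authors deposited 1 table of whole-number read counts, by Ensembl ID and without normalization visible in the values. Per the submitters' processing notes HISAT2 and featureCounts were used. Not given in the sources used here were the build, annotation, strand setting and handling of multi-mapped reads. Counts of overlapping, antisense or near-identical genes are therefore uncertain, and the only coordinates printed are those of RefSeq promoter windows. Genes were kept by filterByExpr, scaled by TMM and tested over the whole table with edgeR 4.0.16 (glmQLFit, glmQLFTest) in R 4.3.3. Treatment was the sole factor, and p-values were adjusted by Benjamini-Hochberg over 15202 genes. A gene rose or fell at an adjusted p under 0.05. Standard errors came from the fold change and its F statistic, and CPM use TMM-scaled library sizes. Alternatives were RLE size factors, library totals, scaling on ribosomal protein genes, no filter, a 5 CPM minimum on the mean, DESeq2 1.42.0, limma-voom (limma 3.58.1), a replicate block, a GC offset (mgcv) and each library left out. The fit was also run on simulated counts, drawn independently for each gene and library. These lacked the differences between replicates seen here, so that run does not speak to them. Members and lists were chosen with earlier results of these data known. Values were given in every library for members past the test, for the 5 largest fold changes and for 1 leading member of each class. The per-library values of LSM7, SNRPB2, SNRPD3, SF3B6, CDC5L and SNRNP25 were added after they were seen. From the wider list, up to 6 genes per direction with the smallest adjusted p were named with group means or folds (GEMIN2 with every library), and the others that passed were named after their values were seen. Lengths, gene types and GC came from GENCODE 29. The smallest count of any member in any library was 135, and precision is limited by the 3 libraries per group. Figures were drawn with matplotlib 3.10.9.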

Additional observations from a re-analysis of the deposited data

How the results depend on the processing

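SNRPA fell in all 15 alternatives, SF3B3 in 14, SNRNP48 in 13 and LSM2 in 8, and the 4 kept their sign in all of them. With scaling on ribosomal protein genes 1 member was called lower (SNRPA), against 0.842% of all tested genes. Members called lower were 7 with no low-count filter, against 3.32%, and 7 with DESeq2, against 7.39%. They were 9 with the GC offset, against 14%, and 2 to 7 with a library left out, against 2.56% to 6.58%. Members called higher were 0 in all alternatives but 1, with a range of 0 to 1 over the libraries left out. The 1 was SNRPD3 without triptolide replicate 1, where 9.59% of all tested genes were called higher. The members' median log2 fold change was 0.031 with ribosomal protein scaling, where all tested genes had 0.17, and -0.23 to -0.057 with a library left out. It lay below the median of all tested genes in all 15. Over all genes, 128 were lower with ribosomal protein scaling, 336 lower and 584 higher with a mean of at least 5 CPM, 2131 lower with the GC offset, and 407 to 1034 lower and 953 to 1580 higher with a library left out. Of the wider list, 8 were lower and 2 higher with library totals, against 3.91% and 11% of all genes. With ribosomal protein scaling 0 were lower, against 0.842%, and with a mean of at least 5 CPM 6 were lower, against 3.27%. The GC offset gave 34 lower and 3 higher, against 14% and 12.7%. With no filter 2 were higher, against 5.92%, and with DESeq2 1 was higher, against 9.9%. With a library left out 4 to 17 were lower, against 2.56% to 6.58%, and 0 to 2 higher, against 5.99% to 10.2%. Members without overlap on the higher side were 2 with ribosomal protein scaling. The cause was not tested. Of the 41 members not called, 9 were called in some alternative, and 19 changed sign in at least 1, to values between -0.16 and 0.18. Deviations from the group mean correlated at 0.03, -0.04 and -0.44 between same-numbered libraries and at -0.28 to 0.31 between differently numbered ones. Within a group these deviations sum to 0, so the correlations depend on each other. No same-numbered pair stood above the range of the others, and pairing by replicate number was not tested. With the replicate block 6 members were lower and 0 higher (LSM2 at an adjusted p of 0.0546, with SNRPD1, SNRPE and LSM7 added), the members' median was -0.18, 856 genes were lower and 1523 higher, and 14 of the wider list were lower.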

Other observations

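The count table also held 32 genes for the RNA parts of the spliceosome, those of U1 and its variants, U4, U5, U6, U11, U4atac and U6atac, which end without a poly(A) tail. None had more than 71 counts in a library, and 2 passed the filter. RNVU1-15, a variant U1 gene, had 6, 5 and 6 counts in untreated replicates 1 to 3 and 31, 35 and 43 in triptolide replicates 1 to 3, a rise with a log2 fold change of 2.43 ± 0.33 (SE) and an edgeR adjusted p of 6.02e-04. RNVU1-30, another variant, named after its values were seen, was too low to be tested and had 8, 6 and 15 counts in untreated replicates 1 to 3 and 1, 0 and 1 in triptolide replicates 1 to 3. RNU6-8 had 29, 25 and 71 counts in untreated replicates 1 to 3 and 47, 69 and 34 in triptolide replicates 1 to 3, with overlap between groups (adjusted p = 0.934). These genes have many near-identical copies, so which copy the reads came from is uncertain.

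SMN1 and SMN2, near-identical genes of the snRNP assembly factor SMN that can share reads, were not called. SMN1 stood at 23.2, 58.1 and 20.9 CPM in untreated replicates 1 to 3 and 15.3, 73.4 and 16.5 CPM in triptolide replicates 1 to 3, so that replicate 2 was the highest library of both groups. SMN2 stood at 5.05, 4.16 and 8.15 CPM in untreated replicates 1 to 3 and 2.39, 5.78 and 4.59 CPM in triptolide replicates 1 to 3.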
